A study of Mus musculus with 2 samples.

Results

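The genes described here are 10 Sox transcription factors of the neural and glial lineages, read in the midbrain of newborn mice. They were chosen by name from 4 branches of the Sox family: SoxB1 (Sox1, Sox2 and Sox3), SoxC (Sox4, Sox11 and Sox12), SoxD (Sox5 and Sox6) and SoxE (Sox9 and Sox10). All 10 were found, by Ensembl identifier, among the 69691 features of each gene table. Total RNA was sequenced from a single midbrain of each of 2 B6NCrl pups on postnatal day 0, pup 1 (replicate 1) and pup 3 (replicate 2), with 1 library each. The labels name no genotype or treatment, leave sex as not collected and give both pups 1 donor identifier. Each library was started from 10 ng of RNA above 200 nt, with 2 spike-in references. With 1 group there was no contrast between conditions, and the comparisons below are between the genes, between their transcripts and between the pups.

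Sox proteins bind DNA through an HMG box, a domain that sits in the minor groove and bends the helix. SoxB1 factors are known for holding neural stem cells and radial glia in the progenitor state, SoxC factors for switching on genes of newborn neurons, SoxE factors for the start of gliogenesis and for the oligodendrocyte programme, and SoxD factors, which have no activation domain of their own, for modulating the other branches and for the timing of oligodendrocyte and neuronal differentiation. In whole tissue RNA, fewer cells of a type and less RNA per cell cannot be told apart.

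Levels are given as TPM, a read share corrected for transcript length, as mean ± SD over the 2 pups (n = 2), and in expected counts, the estimated number of reads assigned to a gene. The libraries held 36934868 (pup 1) and 40769103 (pup 3) expected counts, of which the 10 genes took 39571.94 and 49123. For these genes 1 count was worth between 0.00527 and 0.0227 TPM in pup 1 and between 0.00482 and 0.0201 TPM in pup 3. The deposited credibility interval of each TPM, whose level is not stated, covers estimation within a library only, and it need not contain the TPM itself.

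The branches share the HMG box, so the sequences were first compared to see how far reads could tell the genes apart. The first 60 bases of each box are shown from the coding strand, 5′ to 3′, from GENCODE M21 transcripts on build mm10, with capitals at each base that differs from the first gene named in its branch.
SoxB1, against Sox2:
Sox2: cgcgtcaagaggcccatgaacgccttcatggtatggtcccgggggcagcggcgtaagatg
Sox1: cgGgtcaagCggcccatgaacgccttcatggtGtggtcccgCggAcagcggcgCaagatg
Sox3: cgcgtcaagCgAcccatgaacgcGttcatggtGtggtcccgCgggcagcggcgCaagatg
SoxC, against Sox11:
Sox11: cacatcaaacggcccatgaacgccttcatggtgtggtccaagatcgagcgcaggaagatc
Sox4: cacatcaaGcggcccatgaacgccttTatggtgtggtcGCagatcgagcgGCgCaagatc
Sox12: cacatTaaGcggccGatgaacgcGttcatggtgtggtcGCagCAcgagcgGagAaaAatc
SoxD, against Sox5:
Sox5: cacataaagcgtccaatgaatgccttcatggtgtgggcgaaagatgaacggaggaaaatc
Sox6: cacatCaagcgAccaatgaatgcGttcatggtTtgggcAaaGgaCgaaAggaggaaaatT
SoxE, against Sox9:
Sox9: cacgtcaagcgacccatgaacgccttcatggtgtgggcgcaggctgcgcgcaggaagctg
Sox10: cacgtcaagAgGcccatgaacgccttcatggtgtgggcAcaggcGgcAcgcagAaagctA
Over the whole box of 79 codons, base identity was between 82.3% and 89.9% for the 8 pairs within a branch and between 56.5% and 72.2% for the 37 pairs of different branches. Encoded residues were more alike within a branch, at 86.1% to 96.2%, against 45.6% to 67.1% between branches. The longest stretch of identical bases at the same place in the box was 48 within a branch, in Sox4 and Sox11, and 30 between branches. Over the whole transcripts as they stand in GENCODE M21, no run of 50 bases was shared between any of the 10 genes.

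Overlapping genes were a larger source of shared sequence than the family itself. Sox4 shared 54.1% of its runs of 50 bases with Gm26735, a noncoding gene on the opposite strand, and the use of strand in counting is not given in the sources used here. Gm26735 held 55.06 counts in pup 1, which with the 10554.94 counts of Sox4 sum to 10610, and it held 0 counts beside the 13611 of Sox4 in pup 3, so 0.519% of the pair's counts went to Gm26735 in pup 1. Sox5 shared 8.98% of its runs, nearly all with the antisense gene Sox5os1 (0 counts in both pups), and Sox1 shared 0.774%, with a microRNA gene at 0 counts. The other 7 genes shared none in GENCODE M21. Sox1ot, a noncoding gene on the strand of Sox1, held 188 and 265 counts (pup 1, then pup 3), and Sox2ot, on the strand of Sox2, was not analysed here. Counts were whole, within 0.005, for 9 of the 10 genes in pup 1, all but Sox4, and for all 10 in pup 3.

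All 10 genes reached 1 TPM in both pups, as did 62.1% of 21461 nuclear protein-coding genes. Their medians were 12.07 TPM (pup 1) and 13.98 TPM (pup 3), against 4.51 and 4.68 TPM for protein-coding genes. By mean TPM the order was Sox11, Sox4, Sox9, Sox2, Sox5, Sox12, Sox6, Sox10, Sox1 and Sox3. Neighbours in this order were apart, meaning that the pups did not overlap and the deposited intervals did not overlap in either library, except for 4 pairs: Sox2 and Sox5, Sox12 and Sox6, Sox6 and Sox10, and Sox1 and Sox3. The place of Sox5 rested on short transcript models, as described with the SoxD genes.

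**Figure D1:**
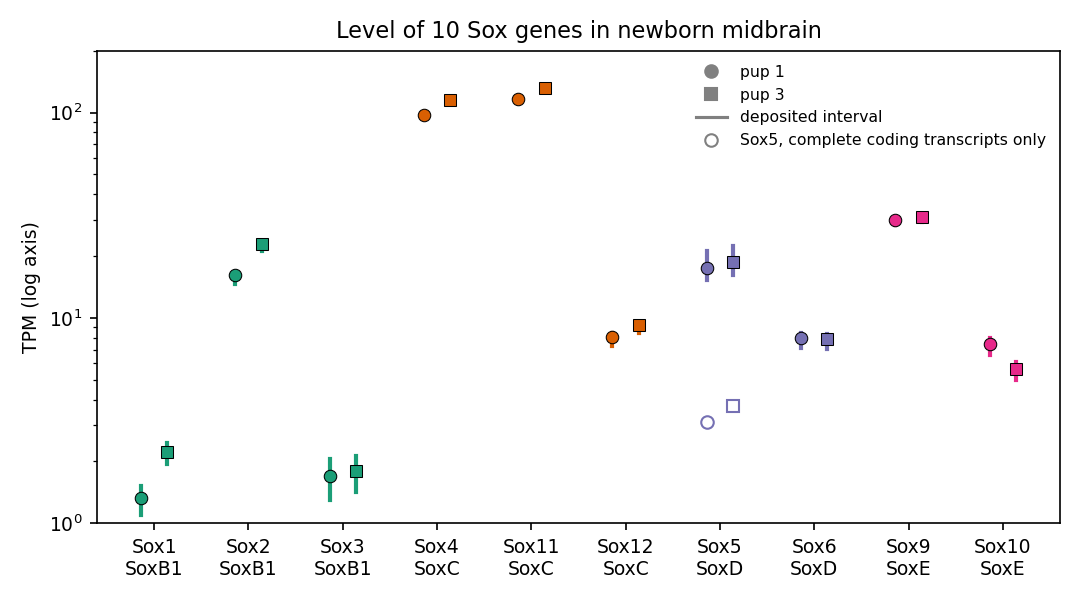
TPM of each of the 10 genes on a log axis in pup 1 (circles) and pup 3 (squares), with lines for the deposited interval, coloured by branch. Sox11 and Sox4 stand highest, at 124 and 106 TPM, and Sox1 and Sox3 lowest, near 1.8 TPM; the open symbols show that Sox5 drops to 3.41 TPM when its complete coding transcripts alone are read.

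SoxC genes held the largest share of the summed TPM of the 10 genes. SoxC had 72.96% of the sum in pup 1 and 73.9% in pup 3 (73.4% ± 0.664, SD, n = 2), SoxE 12.37% and 10.64% (11.5% ± 1.22), SoxD 8.38% and 7.71% (8.04% ± 0.477) and SoxB1 6.29% and 7.76% (7.03% ± 1.04). By expected counts, which weigh long transcripts more, the shares were 84.9% for SoxC, 7.73% for SoxE, 4.27% for SoxD and 3.13% for SoxB1. With incomplete and noncoding transcripts left out, an alternative chosen after seeing the data, SoxD was at 3.66% and SoxC at 76.9%. SoxC led in both pups by each of these measures, while the order of SoxD and SoxB1 turned between the pups and with the transcripts that were read.

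**Figure D2:**
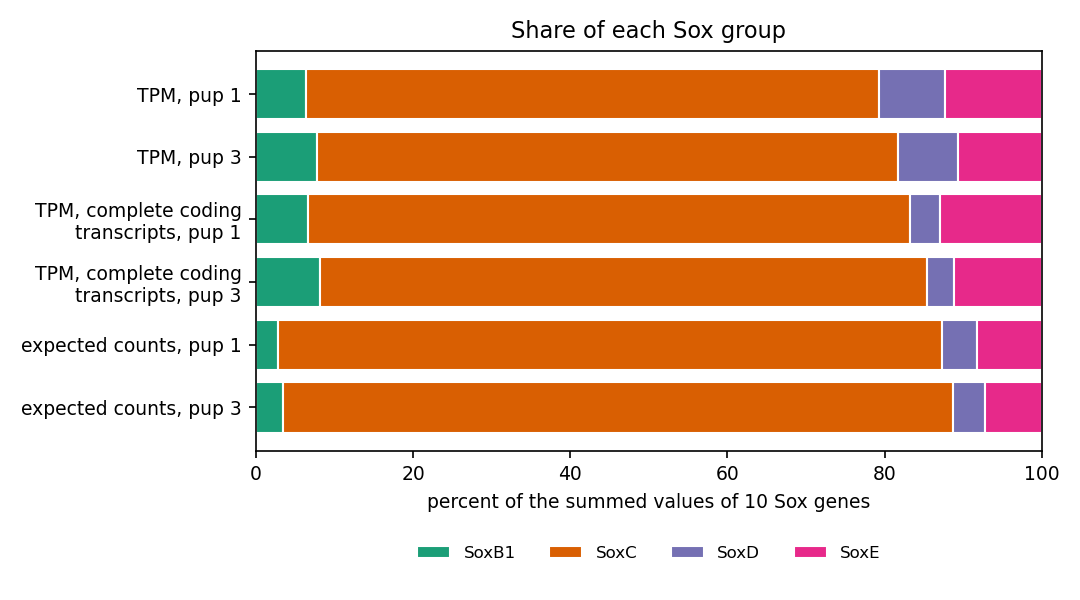
Share of the 4 branches in the summed values of the 10 genes, by pup, as TPM, as TPM of complete coding transcripts and by expected counts. SoxC fills 73.4% of the bar by TPM and 84.9% by counts, and SoxD narrows from 8.04% to 3.66% when incomplete and noncoding transcripts are left out.

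Within SoxB1, Sox2 carried most of the signal. Sox2 (ENSMUSG00000074637.6, chromosome 3, 34650405 to 34652461, plus strand, mm10), the best known neural stem cell factor of the family, was at 16.1 TPM in pup 1 (878 counts) and 22.78 TPM in pup 3 (1357 counts), or 19.4 ± 4.72 (SD, n = 2). The higher value was that of pup 3, and the deposited intervals of the pups did not overlap. Sox2 held 84.6% ± 0.562 of the TPM of the branch, above the median protein-coding gene, at percentiles 67.6 and 72.8 of those genes. The deposited table gave Sox2 a length of 2457 nt, against 2057 nt in GENCODE M21, so the check for shared runs did not cover all of the deposited model. The other 6 genes with a single transcript had the same length in both.

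Sox1, a SoxB1 factor of early neural cells and some neurons (ENSMUSG00000096014.1, chromosome 8, 12395295 to 12400126, plus strand), was at 1.33 and 2.23 TPM (1.78 ± 0.636) on 146 and 267 counts. Its pup 3 value was higher, with deposited intervals apart. Sox3, the X-linked member (ENSMUSG00000045179.9, chromosome X, 60891366 to 60893430, minus strand), was at 1.69 and 1.79 TPM (1.74 ± 0.0707) on only 77 and 89 counts, and its 2 intervals overlapped. On the log2 scale of TPM + 0.1, Sox2 exceeded Sox1 by 3.40 ± 0.15 and Sox3 by 3.39 ± 0.30, and both pairs were apart. A pair was called apart where both pups had 1 sign, the mean passed 1 in size and 3 SD, and intervals did not overlap. Sox1 and Sox3 were not: Sox1 over Sox3 was -0.32 in pup 1 and 0.30 in pup 3, so their order turned between the pups.

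Genes of neural stem cells and radial glia, the setting of SoxB1, reached 1 TPM in both pups for 11 of 12 on the list, with medians of 8.79 and 10.34 TPM. Beside this and each later list stand the 62.1% of protein-coding genes that reached 1 TPM in both pups. Fabp7, a fatty acid binding protein of radial glia, was highest at 2373 ± 51.6 TPM, followed by the intermediate filament gene Vim at 202 ± 12.9 TPM, and Rax, a homeobox gene of eye and hypothalamus, was lowest at 0.365 ± 0.120. Sox2 stood well below Fabp7 and above Nes (7.05 ± 0.339) in TPM; Nes, the gene of the filament nestin, was named after its value was seen. POU factors, known to bind beside SoxB1 and SoxE proteins, reached it for 5 of 6, led by Pou2f1 (16.55 ± 2.50) and Pou3f2 (15.6 ± 1.14), with the pluripotency gene Pou5f1 lowest at 0.145 ± 0.163 (2 counts, then 1).

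SoxC was led by a pair of genes of nearly equal level. Sox11 (ENSMUSG00000063632.6, chromosome 12, 27334264 to 27342574, minus strand), a factor of newborn and differentiating neurons, was at 116.4 TPM in pup 1 (22102 counts) and 131.3 TPM in pup 3 (27237 counts), or 124 ± 10.5. Sox4, its close relative (ENSMUSG00000076431.4, chromosome 13, 28948919 to 28953713, minus strand), was at 97.2 and 114.7 TPM (106 ± 12.4) on 10554.94 and 13611 counts. Both were higher in pup 3 and both stood above percentile 91 of protein-coding genes, at 93.1 and 94.0 for Sox11 and at 91.7 and 93.0 for Sox4.

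Sox11 held 52.0% ± 0.762 of the TPM of the branch and Sox4 44.4% ± 0.773. Sox11 over Sox4 was 0.26 in pup 1 and 0.19 in pup 3 on the log2 scale (0.23 ± 0.046), the same direction in both but under the size asked of a pair. By expected counts the same ratio was 1.03, since the Sox11 transcript is 8311 nt long and that of Sox4 4795 nt. Sox12 (ENSMUSG00000051817.8, chromosome 2, 152393611 to 152398063, minus strand), the weakest activator of the branch, was at 8.03 and 9.21 TPM (8.62 ± 0.834) on 798 and 1000 counts. Sox4 exceeded Sox12 by 3.60 ± 0.031 on the log2 scale, and Sox11 exceeded Sox2 by 2.68 ± 0.23, both apart.

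Neuronal differentiation genes, the setting of SoxC, reached 1 TPM in both pups for 10 of 12, with medians of 15.51 and 16.88 TPM. Stmn1, a microtubule regulator, led at 5376 ± 62.2 TPM, followed by the beta-tubulin gene Tubb3 at 1694 ± 83.8. Nhlh1, a bHLH gene of neurons just after cell cycle exit, was lowest, listed at 0 in pup 1, which allows up to 3 counts, and at 6 counts in pup 3. Dcx, a microtubule protein of migrating neurons named after its value was seen, was at 103 ± 12.5 TPM, close to Sox4 and Sox11.

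SoxD levels depended on which transcripts were read. Sox5 (ENSMUSG00000041540.12, chromosome 6, 143828425 to 144781977, minus strand), known in the brain for the timing of neuron identity and migration, was at 17.52 and 18.75 TPM (18.1 ± 0.870) on 772 and 958 counts. Of its 14 deposited transcripts, 5 encode a complete protein in GENCODE M21, and these held 17.7% and 19.8% of its TPM but 65.3% and 68.4% of its counts. Read on those alone, Sox5 was at 3.11 and 3.71 TPM (3.41 ± 0.424), below Sox10 and above Sox1.

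The difference came from short models. ENSMUST00000139478.1, a noncoding model of 351 nt with an effective length of 252 nt, held 34.8% ± 6.07 of the TPM of Sox5 from 39.96 and 36.46 counts, or 4.49% of its counts. A single count was worth 0.172 TPM there in pup 1, against 0.00622 TPM for ENSMUST00000111749.3, the 7069 nt model that encodes 679 residues. The latter held 14.2% ± 3.90 of the TPM and 50.2% ± 11.7 of the counts.

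ENSMUST00000144289.1, a model of 669 nt whose coding sequence is incomplete, held 23.3% ± 3.37 of the TPM of Sox5 and 6.79% of its counts. All of its runs of 50 bases also lie in complete transcripts of the gene, and 84.8% of those of the 351 nt model do. ENSMUST00000141102.3, which retains an intron, held 11.07% and 6.88% of the TPM, the only other model at 10% or more in either pup.

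Sox6 (ENSMUSG00000051910.9, chromosome 7, 115470872 to 116038796, minus strand), which forms dimers with Sox5 and is known for its role in interneurons, dopaminergic neurons and oligodendrocyte precursors, was at 7.94 and 7.87 TPM (7.91 ± 0.0495) on 983 and 1061 counts. The pups were almost at 1 level. Sox6 over Sox5 was -1.19 ± 0.078 on the log2 scale and apart, but it turned to 1.20 when complete coding transcripts alone were read and to 0.25 by expected counts. Which SoxD gene was higher thus depended on the unit and on the Sox5 transcripts that were read.

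All 5 deposited Sox6 transcripts are complete, and 4 of them held 10% or more of its TPM in either pup. ENSMUST00000166207.1 (2825 nt, 827 residues) held 43.7% ± 1.85 of the TPM and 22.3% ± 0.913 of the counts. ENSMUST00000166877.3 (8079 nt, 787 residues) held 33.3% ± 0.212 of the TPM and 49.8% ± 0.385 of the counts, so the leading transcript depended on the unit. ENSMUST00000169129.3 (5100 nt, 787 residues) held 9.35% and 14.2% of the TPM and ENSMUST00000106612.3 (8193 nt, 785 residues) 12.45% and 9.91%. ENSMUST00000072804.6 was listed at 0 in both pups.

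**Figure D3:**
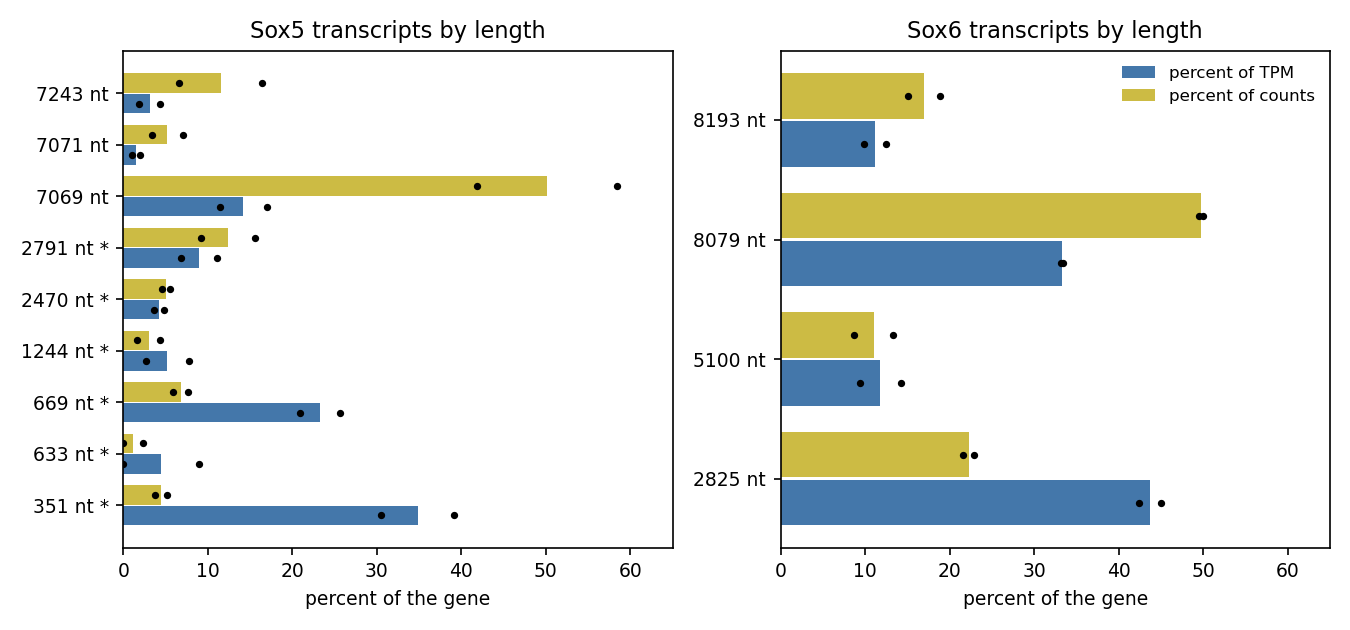
Mean percent of TPM (blue) and of expected counts (yellow) held by each Sox5 and Sox6 transcript with at least 4% by either measure, sorted by length, with a dot for each pup; a star marks a model without a complete coding sequence. The 351 nt Sox5 model has 34.8% of the TPM and 4.49% of the counts, and the 7069 nt model has 14.2% and 50.2%.

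Each of the 5 Sox6 transcripts began within 50 bases of a different RefSeq start of the gene. The windows of 250 bases before to 50 after the start (RefSeq, build GRCm38.p6, minus strand) are shown for the pair of transcripts that exchanged the lead, and for the internal Sox5 start used by 4 deposited models, the 669 nt model among them. Capitals mark ACAAAG or AACAAT, core letters of Sox binding sites, on either strand.
Sox6, ENSMUST00000166877.3, chr7:116038695-116038994: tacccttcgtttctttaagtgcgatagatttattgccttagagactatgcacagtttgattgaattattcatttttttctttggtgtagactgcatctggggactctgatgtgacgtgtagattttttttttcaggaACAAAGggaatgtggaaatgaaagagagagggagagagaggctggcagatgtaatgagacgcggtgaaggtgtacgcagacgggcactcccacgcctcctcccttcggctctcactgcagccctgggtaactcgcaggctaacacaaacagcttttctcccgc
Sox6, ENSMUST00000166207.1, chr7:115846091-115846390: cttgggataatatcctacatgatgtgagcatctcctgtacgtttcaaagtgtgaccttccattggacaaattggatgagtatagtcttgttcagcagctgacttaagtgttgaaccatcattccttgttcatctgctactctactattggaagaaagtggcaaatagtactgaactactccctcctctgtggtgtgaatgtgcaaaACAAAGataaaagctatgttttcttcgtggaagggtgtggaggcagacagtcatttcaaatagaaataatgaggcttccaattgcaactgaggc
Sox5, ENSMUST00000144289.1, chr6:143947057-143947356: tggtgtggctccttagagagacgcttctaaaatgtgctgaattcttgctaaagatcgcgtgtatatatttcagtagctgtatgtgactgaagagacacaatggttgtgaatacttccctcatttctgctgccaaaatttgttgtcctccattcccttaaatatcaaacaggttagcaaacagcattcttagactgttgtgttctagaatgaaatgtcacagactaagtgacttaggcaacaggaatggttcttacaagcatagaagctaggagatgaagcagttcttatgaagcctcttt
The window of ENSMUST00000166877.3 held 11 CG pairs and that of ENSMUST00000166207.1 only 2, against a median of 7 over 32851 RefSeq windows. The Sox5 window held 3. Both Sox6 windows held 1 ACAAAG, which 18.7% of all windows hold, and the Sox5 window held neither motif; AACAAT is in 10.7% of all windows and either motif in 27.0%. No matches overlapped. Such letters are a description of the sequence, and binding was not measured.

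Sox12, the remaining gene with more than 1 transcript, had ENSMUST00000182625.1 at 80.6% ± 0.149 of its TPM and 81.7% of its counts. Both Sox12 transcripts encode 314 residues. The other 7 genes had 1 transcript each.

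The SoxD setting list of corepressors and neuron factors reached 1 TPM in both pups for 7 of 8, with medians of 39.19 and 43.56 TPM. The corepressor gene Ctbp1 led at 257 ± 6.77 TPM, followed by Bcl11a, a zinc finger gene of differentiating neurons, at 70.7 ± 2.77, and Sp8, a zinc finger gene of forebrain interneurons, was lowest at 1.14 ± 0.537.

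SoxE was led by Sox9. Sox9 (ENSMUSG00000000567.5, chromosome 11, 112782224 to 112787760, plus strand), a factor of radial glia and astrocytes that acts early in gliogenesis, was at 30.13 TPM in pup 1 (2812 counts) and 31.09 TPM in pup 3 (3170 counts), or 30.6 ± 0.679. The pups were close and their intervals overlapped. Sox10 (ENSMUSG00000033006.9, chromosome 15, 79154908 to 79165240, minus strand), which drives oligodendrocyte genes, was at 7.43 and 5.65 TPM (6.54 ± 1.26) on 449 and 373 counts, with the higher value in pup 1. Sox9 held 82.4% ± 3.11 of the summed TPM of Sox9 and Sox10, and it exceeded Sox10 by 2.22 ± 0.31 on the log2 scale, a pair apart. Sox8, also of SoxE, was left out of that share and stood at 15.8 ± 2.19 TPM, above Sox10. Sox2 over Sox9 was -0.67 ± 0.32, below in both pups but not apart.

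Sox9 and Sox10 also mark cells outside the brain, and markers of such cells were read beside them. What such cells added to the Sox9 and Sox10 values was not tested. Of 6 Schwann cell and neural crest markers, 2 reached 1 TPM in both pups (Ngfr and Tfap2a), with a summed level of 6.12 and 6.52 TPM; Foxd3, a neural crest factor, was at 1 count in pup 1 and 0 in pup 3. Of 5 melanocyte markers none did, with a sum of 1.50 and 1.69 TPM, and of 5 cartilage markers 2 did (Col2a1 and Col9a1), with a sum of 5.87 and 7.35 TPM.

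Gliogenic factors, the setting of SoxE, reached 1 TPM in both pups for 10 of 10, with medians of 25.18 and 31.26 TPM. The HLH gene Id3 led at 130 ± 5.07 TPM, then Aldh1l1, an astrocyte enzyme, at 77.06 ± 10.1, and Egfr, a growth factor receptor of progenitors, was lowest at 8.32 ± 0.686. The oligodendrocyte lineage list reached it for 8 of 12, against 62.1% of protein-coding genes, with medians of 7.64 and 7.55 TPM. Olig1, a bHLH gene of the lineage, led at 148 ± 7.78 TPM, followed by the myelin gene Mbp at 20.6 ± 0.643, with the receptor gene Erbb3 lowest at 0.225 ± 0.0778. By mean TPM, 6 of the 12 were above Sox10 and 6 below it. Among precursor genes, named after their values were seen, Olig2 (12.8 ± 1.48) and Pdgfra (14.07 ± 1.75) were above Sox10, and Gpr17 (5.35 ± 1.77) and Cspg4 (4.33 ± 0.658) below it.

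Among the 10 other Sox genes, 7 reached 1 TPM in both pups, against 62.1% of protein-coding genes. Sox14, a SoxB2 gene of inhibitory neurons in midbrain and thalamus, was highest at 39.86 and 38.88 TPM (39.4 ± 0.693), above Sox9 and below Sox4. Sox8, the remaining SoxE gene, was at 17.34 and 14.24 TPM (15.8 ± 2.19), above Sox10 in both pups. The SoxF genes of endothelium were at 8.69 ± 1.17 (Sox18), 6.18 ± 1.31 (Sox17) and 2.62 ± 0.148 TPM (Sox7), the SoxB2 gene Sox21 at 5.87 ± 0.601 and Sox13, the remaining SoxD gene, at 3.38 ± 0.849. Sox15 had 3 counts and Sox30 had 4 counts in each pup, and Sry had 0, which allows up to 3 counts. With these genes in the sum, and Sox8 and Sox13 in their branches, SoxC held 58.6% of Sox TPM, SoxE 13.1%, SoxD 7.25% and SoxB1 5.62%.

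The difference between the pups was taken as log2 of pup 3 over pup 1 after scaling to nuclear protein-coding TPM. It has no replicate check, since each animal had 1 library, and the smallest p of an exact two-sided sign-flip test on 2 pups is 0.5, so none is given. Of the 10 genes, 9 passed a filter at a mean of 100 counts, all but Sox3, and 0 of these were past 1 in size, a size passed by 0.377% of 13254 genes. Past 0.5 in size were 2, Sox1 and Sox2, against 3.43% of all genes. The deposited intervals of the pups did not overlap for 6 of the 9, against 20.4% of all genes, and pup 3 was the higher for 5 of them, against 12.8%, and the lower for 1, against 7.52%. Those shares rise with depth: intervals were apart for 8.23% of genes at mean counts of 100 to 500 and for 58.5% of genes at 10000 or more, where Sox4 and Sox11 lie.

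Pup 3 was higher for 8 of the 10 genes, all but Sox6 and Sox10, under the scaling used here, TMM, DESeq2 size factors and TPM as deposited. Of the 8, Sox3 did not pass the filter on counts, and the intervals of Sox3, Sox5 and Sox9 hold 0. The share of all genes higher in pup 3 was not counted. Their median was 0.03 under the scaling used here (25th to 75th percentile -0.07 to 0.15) and -0.01 under TMM. Scaled to the ERCC spike-ins, which had 228 and 340 counts, pup 3 was higher for only 2, Sox1 and Sox2. The ERCC scaling moved the median of all genes to -0.44, from 0.03. In each of the 5 scalings 8 of the 10 genes were above the median of all genes. A scaling moves all genes and their median together, so this count is no separate check for each scaling.

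Sox1 had the largest difference of the 10, 0.75 on the log2 scale (95% counting interval 0.46 to 1.06, or 1.69-fold), which was 0.29 under ERCC scaling. Sox2 followed at 0.51 (0.39 to 0.63, 1.42-fold), which was 0.48 under TMM and 0.05 under ERCC scaling. Of genes at mean counts of 100 to 500, where Sox1 lies, 8.61% were past 0.5 in size, and of genes at 500 to 2000, where Sox2 lies, 2.25% were. Sox3, on few counts, was at 0.09 (-0.37 to 0.55), an interval that holds 0 and also the value of Sox2. These intervals cover counting error only, since copies of 1 molecule cannot be recognised without molecular identifiers.

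SoxC differences were smaller: 0.25 for Sox4 (0.21 to 0.28), 0.18 for Sox11 (0.16 to 0.21) and 0.21 for Sox12 (0.07 to 0.34), each of which turned negative under ERCC scaling. All lay within the 5th to 95th percentile of all genes, from -0.26 to 0.40. Sox9 at 0.05 (-0.02 to 0.13), Sox5 at 0.11 (-0.03 to 0.24) and Sox6 at -0.0050 (-0.13 to 0.12) had intervals that hold 0, and Sox5 and Sox9 turned negative under ERCC scaling. Each interval takes its width from the gene's total counts and leaves out how counts were split among transcripts. The Sox5 interval thus understates the error of its TPM, much of which rests on few counts of short models. By counts under TMM, Sox5 was at 0.16. On its complete coding transcripts Sox5 was at 0.26.

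Sox10 was the only 1 of the 10 below that range, at -0.39 (-0.59 to -0.19), or 0.765-fold, and it was negative under every scaling run, down to -0.84 with ERCC. Sox8 was also lower in pup 3, by -0.28, with intervals apart, and Sox13 was at -0.51 with intervals that overlapped. On its complete coding transcripts Sox13 was at 3.29 and 2.69 TPM, against 3.98 and 2.78 TPM over all its transcripts. Summed by branch, log2 of pup 3 over pup 1 in TPM was 0.49 for SoxB1, 0.21 for SoxC, 0.07 for SoxD and -0.02 for SoxE.

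**Figure D4:**
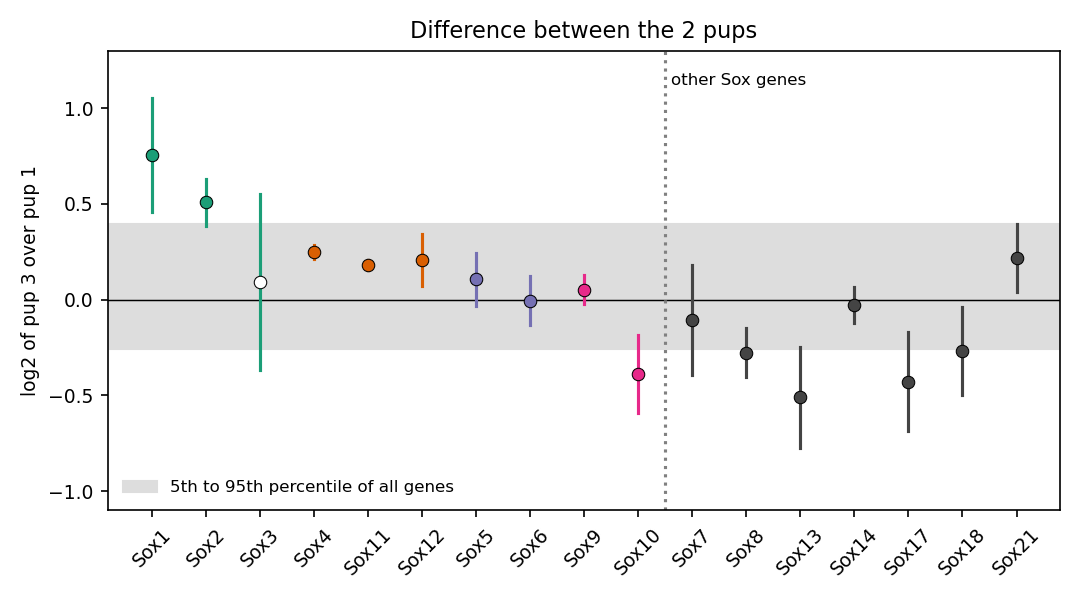
Log2 of pup 3 over pup 1 for the 10 genes, coloured by branch, with 95% counting intervals. Other Sox genes at a mean of 100 counts or more are dark. Intervals take their width from a gene's total counts and leave out the split among transcripts. The band is the 5th to 95th percentile of all genes, from -0.26 to 0.40. The open point (Sox3) did not pass the filter on counts. Sox1 (0.75) and Sox2 (0.51) lie above the band and Sox10 (-0.39) below it; under ERCC scaling all 10 values are lower, and Sox1 and Sox2 alone stay above 0.

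Gene lists that stand beside these differences were read in the same way, and no list was tested as a set. Except for hypothalamus and forebrain genes, each list median below lay within -0.26 to 0.40, the 5th to 95th percentile of single genes. Of the oligodendrocyte lineage list, 8 genes passed the filter on counts, with a median of -0.16 against 0.03 for all genes. Intervals were apart with pup 3 lower for 5 (Olig1, Olig2, Pdgfra, Cspg4 and Gpr17) and with pup 3 higher for 1, against 7.52% and 12.8% of all genes. At 2000 to 10000 counts, where Olig1 and Pdgfra lie, 29.9% of genes are apart in either direction. The differences of the 5 ran from -0.10 for Olig1 to -0.68 for Gpr17, a receptor of committed precursors. Their part in the Sox10 value was not tested.

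Of the neural stem and radial glia list, 11 passed, with a median of 0.14; pup 3 was higher with intervals apart for 3, Pax6 (0.72), Msi1 (0.35) and Vim (0.14), and lower for 2, Hes5 (-0.12) and Fabp7 (-0.04), against 12.8% and 7.52% of all genes. Vim, Hes5 and Msi1 lie at depths where 29.9% of genes are apart, and Fabp7 where 58.5% are. Hypothalamus and forebrain genes, a list of 10 chosen after seeing the data, summed to 66.8 TPM in pup 1 and 117 TPM in pup 3. Of 8 that passed, 7 were higher in pup 3 with intervals apart (12.8% of all genes) and 5 were past 1 (0.377% of all genes), with a median of 1.37, a direction for which the list was chosen; Dlx1, a homeobox gene of forebrain interneurons, was at 8.97 and 21.76 TPM. Its part in the Sox1 and Sox2 values was not tested.

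For the SoxC setting, 10 genes passed, with a median of 0.19, 4 apart with pup 3 higher (Dcx, Elavl3, Neurod1 and Neurod2) and 2 lower (Tubb3 and Stmn1). For the SoxD setting, 8 passed, with a median of 0.09, 3 higher and 1 lower, and Sp8 was past 1 (1.01). For gliogenic factors, 10 passed, with a median of 0.17, 4 higher, namely Nfia, Nfib, Nfix and Zbtb20, and 2 lower, Aldh1l1 and Gfap. For POU factors, 5 passed, with a median of 0.07, and Pou3f2 alone was apart. Against these counts, 12.8% of all genes were apart with pup 3 higher and 7.52% with pup 3 lower, and at 10000 counts or more, where Dcx, Tubb3, Stmn1 and Ctbp1 lie, 58.5% were apart. At 2000 to 10000 counts 29.9% were apart, and Elavl3, Nfia, Nfib, Nfix, Zbtb20, Aldh1l1, Pou3f2 and Nr2f2 of the SoxD list lie there. These directions hold for the scaling used here; under ERCC scaling all values shift down together with the median.

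Markers of the midbrain and of its neighbours were read beside the tissue label. The midbrain list reached 1 TPM for 3 of 4 (Tcf7l2, Otx2 and En1), with En2 at 0.88 and 0.74 TPM. Tcf7l2 and Otx2 are not confined to the midbrain, so they cannot set it apart from tissue in front of it. Of 5 Hox genes, which mark tissue behind the foremost hindbrain segment, 4 were at 0 in both pups. Hox zeros cannot show whether tissue of that foremost segment, next to the midbrain, was included. The 10 hypothalamus and forebrain genes, read here for tissue in front of the midbrain, were chosen after seeing the data, for being higher in pup 3. Whether each is confined to such tissue was not tested. Of the 10, 8 reached 1 TPM in both pups. Among them were Six3 (19.9 and 23.87 TPM) and the neuropeptide genes Oxt (4.28 and 20.39 TPM) and Hcrt (4.88 and 14.31 TPM). Lhx2, also among them, was not higher in pup 3 (20.32 and 18.84 TPM), with intervals that overlapped. How much tissue from in front of the midbrain the samples held was not tested. Neuron, astrocyte and radial glia, meningeal, endothelial, microglial and ependymal markers all reached it, as did 3 of 4 oligodendrocyte lineage markers and 3 of 5 erythroid ones, so the RNA came from a mixture of cell types. Endothelial markers summed to 142 and 119 TPM and erythroid ones to 1353 and 1474 TPM. Of the 4 endothelial markers Cldn5 alone had intervals apart. The SoxF genes Sox7 (-0.11), Sox17 (-0.43) and Sox18 (-0.27) all had intervals that overlapped between the pups. On its complete coding transcripts Sox17 was at 4.16 and 3.79 TPM, against 7.11 and 5.26 TPM over all its transcripts.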

How the data were processed

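For each of 2 libraries (1 group, 2 pups) the authors deposited a gene and a transcript table on build mm10 with GENCODE release M4, derived from alignments to the transcriptome, per the record deposited with them; the sources used here give no program, version or use of strand. The authors' expected counts are estimates of reads per feature, and the deposited TPM is scaled over all features, spike-ins included. The deposited transcript tables give each transcript's percent of its gene's TPM. The bounds of the deposited credibility intervals, a signal on the TPM scale, and the authors' lengths in nt were used as given. Deposited FPKM columns were not used.

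Symbols, coding status and coordinates came from GENCODE M21 by identifier without version (42462 of 69691 features, 97.96% of Ensembl identifiers), and promoter windows from RefSeq. The members and all lists were chosen with earlier results of these data known. Named from each list were its 2 highest genes and its lowest by mean TPM, and every other Sox gene; single values of 2 list genes are not reported here.

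Ratios used log2 of TPM after adding 0.1, which understates those of low genes. Differences between pups were read at a mean of 100 counts. Their exact binomial 95% intervals used each gene's total counts and were centred on the TPM difference. Per the labels, the libraries are from pup 1 and pup 3, under 1 donor identifier; the SD is over these 2. Alternatives were pseudocounts of 0 and 1, posterior mean TPM, counts, other scalings, filters of 10 counts and none, and each pup alone. Expected counts were rounded for edgeR 4.0.16 (TMM) and DESeq2 1.42.0 (size factors), used for scaling only, in R 4.3.3; the rest used Python 3.11.15, numpy 2.4.6, pandas 2.3.3, SciPy 1.17.1 and matplotlib 3.10.9. The code for pup differences was tested on simulated data. A count of 0 allows up to 3.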

Additional observations from a re-analysis of the deposited data

How the results depend on the processing

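By expected counts the shares were 3.13% for SoxB1, 84.9% for SoxC, 4.27% for SoxD and 7.73% for SoxE; over all Sox genes they were 5.62%, 58.6%, 7.25% and 13.1%; and on complete coding transcripts, an alternative chosen after seeing the data, SoxC was 76.9% and SoxD 3.66%. With each pup alone, shares ranged from 6.29% to 7.76% (SoxB1), 72.96% to 73.9% (SoxC), 7.71% to 8.38% (SoxD) and 10.64% to 12.37% (SoxE). Sox1 over Sox3 changed sign with a pseudocount of 1 (0.0020) and by expected counts (1.25), and ranged from -0.32 to 0.30 with each pup alone, the latter without pup 1. Sox6 over Sox5 changed sign by expected counts (0.25) and on complete coding transcripts (1.20). By expected counts, which are not divided by length, Sox11 over Sox4 (1.03) and Sox2 over Sox9 (-1.45) were apart. The leading transcript's share by expected counts was 4.49% in Sox5, 22.3% in Sox6 and 81.7% in Sox12, and 82.5% in Sox12 by posterior mean TPM. No gene of the 10 was past 1 between pups under any scaling or filter run, and 2 were past 0.5 with the scaling of the report (Sox2 was at 0.48 under TMM and DESeq2 size factors). ERCC scaling moved all 10 differences between pups; with 228 and 340 spike-in counts its precision is limited. Leaving out a pup gives no difference between pups. No paired analysis was possible because there is 1 group, with nothing to pair. Depth limited Sox3 most, at 77 and 89 counts.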
